A study of Mus musculus with 3 samples.

Results

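The genes described here encode secreted or membrane-bound signalling proteins of inflammation, namely interleukins, ligands of the tumor necrosis factor (TNF) superfamily, CXC and CC chemokines, and a few growth factors and other cytokines. The list holds 42 genes of the 37074 gene names on the array, and all 42 were found there, on 59 probes. Each gene was read by the probe with the highest mean signal over the 3 arrays, and 14 of the 42 genes had more than 1 probe. Their messages were read in LT-HSCs, the long-lived stem cells of the blood, to ask how loss of the DNA damage kinase ATM, alone or with the stress kinase p38α, changes them. The cells were sorted from the bone marrow of C57BL/6J mice, labelled as 11 weeks old, as CD150+CD48-Flt3-CD34- LSK cells, which lack lineage markers and carry Sca-1 and c-Kit. The methods add CD41- to this gate, while the design text names CD34 and Flt3 only, and the lineage antibodies were to Mac-1 and Gr-1 (myeloid cells), CD4 and CD8 (T cells), B220 (B cells) and TER-119 (erythroid cells). AtmsKO mice carried floxed Atm and Atmp38dKO mice carried floxed Atm and floxed p38α, in both cases with CAG-CreERT2, a tamoxifen-activated Cre under a promoter that is active in most cell types, so deletion was not restricted to blood cells. Controls (WT), per the methods, were floxed mice without Cre that had also been given tamoxifen, so the drug was common to all groups and the Cre protein was not. In the design text tamoxifen was given at around 5 weeks of age and analysis followed after 4 weeks, which does not add up to the labelled age. How many mice contributed to each array is not given in the sources used here.

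Cytokines and chemokines are made at low levels in resting cells and are induced within hours by microbial products, by other cytokines or by stress. Their promoters are common targets of NF-κB and AP-1, and many of their messenger RNAs carry AU-rich elements, repeats of the letters ATTTA in the DNA sequence, which mark a message for rapid decay. The p38 pathway is known to stabilize such messages through its downstream kinase MK2, which inactivates the RNA-binding protein tristetraprolin. In the bone marrow, inflammatory cytokines can push HSCs out of quiescence, and the chemokine CXCL12 made by stromal cells retains them in the niche.

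Each genotype was represented by 1 array with Cy3-labelled RNA, all on the same slide. There were therefore no replicates and no tests, and what is compared below is arrays, not conditions. Between 68.9% and 77.7% of probes were well above background, the scanner software's flag for a spot brighter than its surroundings, and the lowest signal so flagged was between 4.97 and 6.12 intensity units. A level is given below as the processed signal in these units. A difference is given on the log2 scale after each array was set to its 75th percentile, so a ratio of raw signals is close to it but not identical. Its sign is that of a mutant array minus WT or, between the mutant arrays, of the Atmp38dKO-labelled array minus AtmsKO. Where 3 signals are given, they are in the order WT, AtmsKO, Atmp38dKO-labelled array. The only error measured was that between repeated spots of a set of probes printed several times on an array. For signals of 5 to 20 the SD of a difference between 2 such spots was 0.37 to 0.42 on the log2 scale, for 20 to 100 it was 0.19 to 0.26, and for 100 to 1000 it was 0.09 to 0.11. No probe of the 42 genes was printed more than once, and this spread leaves out all variation between mice, sorts and labelling reactions.

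The targeted genes checked the labels only in part. Atm had signals of 88.8 in WT, 16.3 in AtmsKO and 49.0 in Atmp38dKO at one probe, and of 87.0, 23.9 and 86.5 at the other. Mapk14, the gene of p38α, was not lower on the Atmp38dKO array, with log2 differences from WT of 0.18 and 0.01 at its probes. Which exons were deleted is not given in the sources used here, and a Mapk14 probe outside them can still read the message. For Atm, the same probes had log2 differences from WT of -2.37 and -1.79 in AtmsKO, but -1.07 and -0.22 on the Atmp38dKO array. Whether deletion was complete or the label is right was not tested. The array is therefore called the Atmp38dKO-labelled array. Of the HSC and progenitor markers, 12 of 12 were well above background on every array, Kit at signals of 2652.0 to 3247.8 among them. The same held for 12 of 12 granulocyte markers, and between 71.3% and 79.7% of all genes passed on an array. The count therefore does not identify the cells as stem cells. Among the HSC and progenitor markers, Hoxb5 (91.4 in WT, 107.4 in AtmsKO and 34 on the Atmp38dKO-labelled array) and Fgd5 (197.6, 146.5 and 69.8) were lowest on the Atmp38dKO-labelled array. Only these 2 of 12 were at least 2-fold below WT there, against 4.49% of all genes. Smaller differences made 10 of 12 lower than WT, with a median of -0.25, while Kit (0.08) and Tek (0.26) were higher. The summed signal of the 12 on the log2 scale was 7.19, 7.21 and 7.03.

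Most of the ligand genes were detectable in the sorted cells, though on no array at a higher rate than all genes. Of the 42 genes, 25 were well above background on all 3 arrays (68.5% of all genes), 9 on 1 or 2 arrays and 8 on none. By array, 28 genes passed in WT, where the share over all genes was 75.5%, 27 in AtmsKO (71.3% of all genes) and 33 on the Atmp38dKO-labelled array (79.7% of all genes). The 34 genes seen on at least 1 array compare with 83.0% of all genes. The genes not well above background on any array were Il1a and Il33, alarmins released by damaged cells; Il6; the neutrophil chemoattractants Cxcl1 and Cxcl3; the monocyte chemoattractants Ccl7 and Ccl12; and Ccl22, a ligand of CCR4, a chemokine receptor of T cells. By family, 8 of 11 CC chemokines, 5 of 9 CXC chemokines, 6 of 11 interleukins and relatives, 5 of 6 TNF superfamily ligands and 1 of 5 growth factors and others were well above background on all 3 arrays. The plot of signals by gene shows each reading, with those not well above background as open points.

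**Figure D1:**
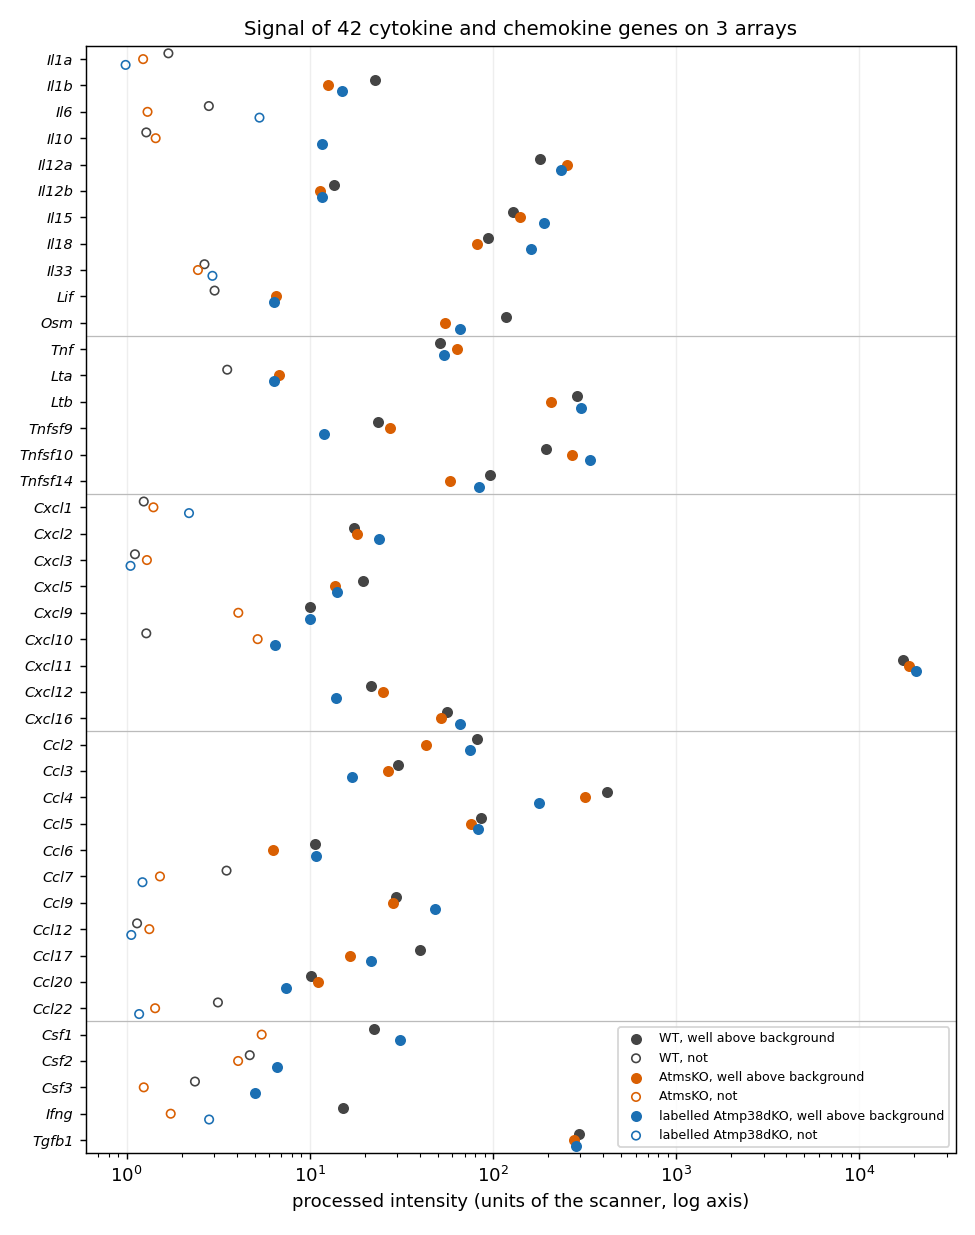
Processed signal of each of the 42 genes at its brightest probe in WT (grey), AtmsKO (orange) and the Atmp38dKO-labelled array (blue), on a log axis in scanner intensity units, 1 point per array, filled where the spot was well above background and open where it was not. Horizontal lines separate interleukins and relatives, TNF superfamily, CXC chemokines, CC chemokines, and growth factors and others; 8 genes have open points only, and the 3 points of Cxcl11 lie far to the right, between 17296.4 and 20382.7.

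The probe sequences of the genes show a feature of unstable messages. The letters TATTTAT, a core of AU-rich elements that contains ATTTA, occurred on the message strand in the chosen probes of 5 of the 42 genes (11.9%), against 1.07% of all 37074 genes. The shorter ATTTA occurred in 12 of the 42 (28.6%), against 7.8% of all genes. The stretches of 30 bases around TATTTAT are printed from the array's own probes (mm9, all on the + strand), with those letters in capitals, because they show what the probes of an induced cytokine read.
Il10, chr1:132920962-132920991: tctctccgaaaTATTTATtacctctgatac
Cxcl2, chr5:91334552-91334581: atttttaaaccTATTTATtcattagtttct
Ccl4, chr11:83478044-83478073: attatttttatTATTTATgttttagttata
Ccl22, chr8:97274719-97274748: agctatagttaTATTTATataggaaagagg
Lif, chr11:4172042-4172071: aaaggggccttTATTTATtatttaaaactt
The match is a description of the letters in these probes, and a gene whose probe lies elsewhere on the message may carry such an element all the same. Of these 5 genes, Cxcl2 and Ccl4 were well above background on all 3 arrays, Lif on 2, Il10 on 1 and Ccl22 on none.

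Promoters were searched for 30 of the 42 genes that had an entry in a RefSeq table of windows around gene starts (GRCm38.p6). The NF-κB consensus, on either strand, was found for 11 of the 30 (36.7%), against 9.55% of 27025 genes with a promoter entry. The AP-1 letters TGANTCA, on either strand, were found for 7 (23.3%, against 8.97%), and TATAAA on the gene's strand for 10 (33.3%, against 9.77%). The members with the NF-κB letters were Ccl20, Ccl9, Csf1, Cxcl1, Cxcl10, Cxcl2, Cxcl3, Il6, Lif, Ltb and Tgfb1. The neighbours Cxcl1, Cxcl2 and Cxcl3 shared the same 11 letters, in capitals below, and are printed with Ltb, whose match differs, since they are alike in this window and unlike in detection.
Cxcl1, chr5:90891154-90891203: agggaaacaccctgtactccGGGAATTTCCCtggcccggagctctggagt
Cxcl2, chr5:90903782-90903831: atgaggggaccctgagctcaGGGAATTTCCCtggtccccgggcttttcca
Cxcl3, chr5:90786008-90786057: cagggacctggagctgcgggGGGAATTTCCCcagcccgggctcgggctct
Ltb, chr17:35194400-35194449: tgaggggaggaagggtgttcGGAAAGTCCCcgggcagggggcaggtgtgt
All 4 windows lie on the + strand. Of these genes, Cxcl2 and Ltb were well above background on every array, and Cxcl1 and Cxcl3 on none, although the 3 CXC genes lie within 144.1 kb of each other with Cxcl5.

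Against WT, more of the ligand genes were lower than higher on both mutant arrays. In AtmsKO compared with WT, 30 of the 42 genes were well above background on at least 1 of the arrays compared, and 0 of them were at least 2-fold higher, against 3.94% of all genes. At least 2-fold lower were 4 (13.3%), Ccl17, Csf1, Ifng and Osm, against 4.09% of all genes. On the Atmp38dKO-labelled array compared with WT, 0 of 34 genes were at least 2-fold higher, against 4.02% of all genes, and 6 (17.6%) were at least 2-fold lower, Tnfsf9, Ccl3, Ccl4, Ccl17, Ifng and Osm, against 4.49%. Both comparisons use the same WT array, so the genes they have in common, Ccl17, Ifng and Osm, are not independent readings. Between the mutant arrays, 1 of 33 genes was at least 2-fold higher on the Atmp38dKO-labelled array, Csf1 (3.03%, against 3.75% of all genes), and 3 were at least 2-fold lower, Tnfsf9, Cxcl12 and Ccl4 (9.09%, against 3.72%). Under normexp background correction, which adds 50 units to every signal and left 0.360% to 0.493% of all genes at least 2-fold lower, Ccl4 compared with WT was the only one of these differences that stayed at 2-fold.

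The shares depended on which genes were counted. With both arrays well above background, the lower genes were 2 of 25 in AtmsKO against WT (2.81% of all genes), 5 of 27 on the Atmp38dKO-labelled array against WT (3.40%) and 3 of 27 between the mutant arrays (2.94%). The genes higher under this rule were 0, 0 and 0, where all genes gave 2.93%, 3.0% and 2.78%. Dim spots vary more, so genes of like signal were also compared. Among the 16 ligand genes with a mean signal of 10 to 100, 3, 4 and 2 were at least 2-fold lower (18.8%, 25.0% and 12.5%), beside 6.62%, 5.93% and 5.26% of all genes of like signal. In the same range 0, 0 and 1 were at least 2-fold higher, beside 6.01%, 6.18% and 6.38%. The median log2 difference over the ligand genes was -0.11 from WT to AtmsKO, -0.21 between the Atmp38dKO-labelled array and WT and -0.16 between the mutant arrays, where that over all genes was 0.01, 0.02 and 0.00 in size. The value between the mutant arrays was not stable, since it was -0.03 over genes seen on all 3 arrays, -0.03 under RefSeq names and 0.02 without a floor or with the authors' log2 values. Over genes measured on both arrays it was -0.11, -0.26 and -0.16, beside 0.02, 0.01 and -0.01. Counted by sign alone, 15 of 25 genes were lower in AtmsKO than in WT (47.1% of all genes), 18 of 27 on the Atmp38dKO-labelled array than in WT (48.9%) and 16 of 27 between the mutant arrays (51.5%).

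**Figure D2:**
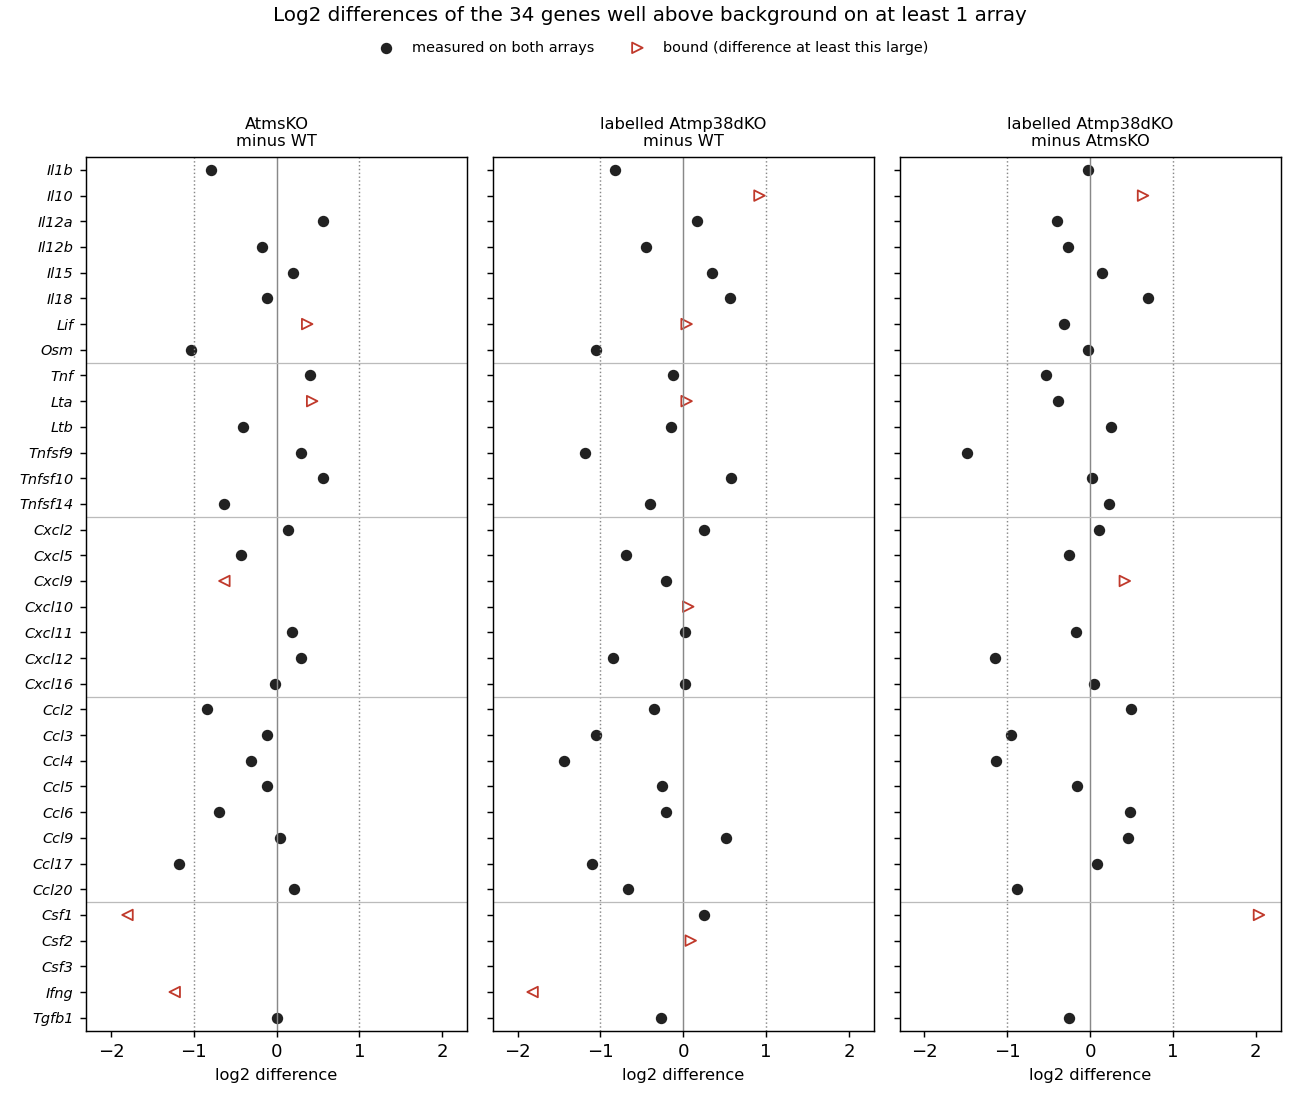
Log2 difference of each of the 34 genes well above background on at least 1 array, in the 3 comparisons, after scaling to the 75th percentile; black points are differences with both arrays well above background, and red triangles are bounds that point towards the larger difference. Dotted lines mark 2-fold, and the genes left of the lower line in the comparison of the Atmp38dKO-labelled array with WT are Osm, Tnfsf9, Ccl3, Ccl4, Ccl17 and Ifng.

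**Figure D3:**
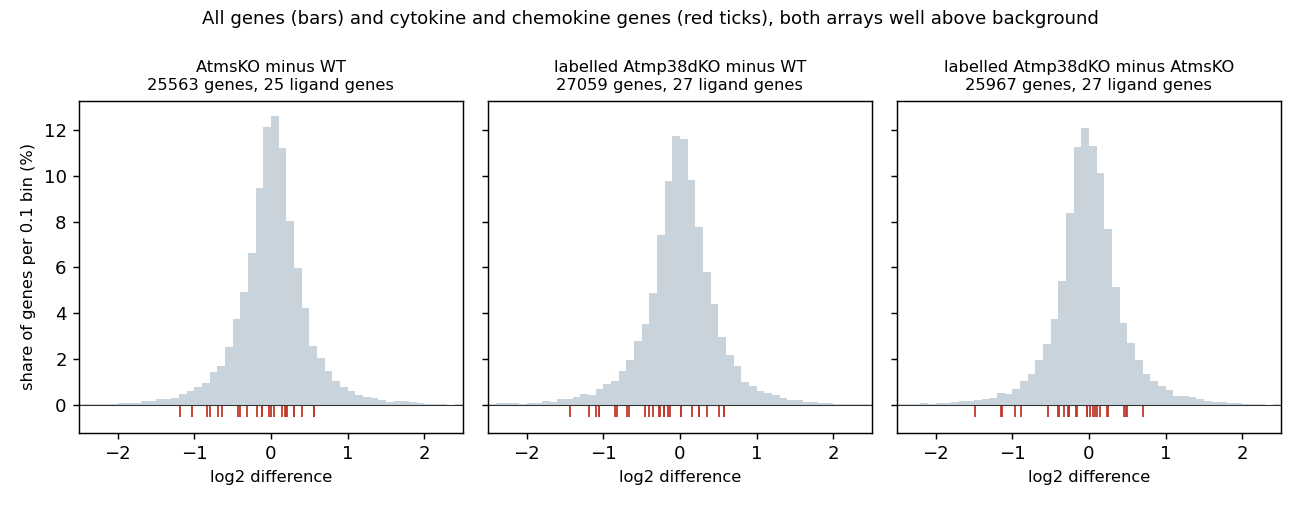
Distribution of log2 differences over all genes well above background on both arrays, as the share of genes per bin of width 0.1 (bars), with the ligand genes as red ticks below the axis. No tick lies beyond +1, and 2, 5 and 3 ticks lie beyond -1 from the left to the right panel.

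Among the CC chemokines, which draw monocytes and lymphocytes to sites of inflammation, Ccl4 and Ccl17 differed most. Ccl4, the gene of MIP-1β, had signals of 417.5 in WT, 319.7 in AtmsKO and 179.0 on the Atmp38dKO-labelled array. It was thus lowest where both deletions were labelled, 2.71-fold below WT (log2 difference -1.44) and 2.19-fold below AtmsKO (-1.13), with AtmsKO 0.31 below WT on the log2 scale. A second Ccl4 probe gave 302.9, 259.5 and 138.4 and the same order, but it shared 46 bases with the first and is no independent reading. Ccl3, the gene of the related MIP-1α, had signals of 30.4, 26.8 and 16.9, a log2 difference of -1.06 from WT and -0.96 from AtmsKO. Ccl5, which encodes RANTES, an attractant of T cells, had signals of 85.8, 75.6 and 82.9 and differed by at most 0.26 on the log2 scale. These genes lie in a row with Ccl9 and Ccl6 on chromosome 11 (probes at 83339296 to 83478097, mm9), and the row did not move together. Ccl9 was highest on the Atmp38dKO-labelled array, with 29.4, 28.6 and 48.4, and Ccl6 was lowest in AtmsKO, with 10.7, 6.31 and 10.8. Both encode ligands of CCR1.

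Ccl17, a chemokine of dendritic cells that binds CCR4, had signals of 39.7 in WT, 16.6 in AtmsKO and 21.5 on the Atmp38dKO-labelled array. Both mutant arrays were lower than WT, with log2 differences of -1.18 and -1.1, and differed from each other by 0.08. Ccl22, its neighbour at a distance of 61.1 kb and a ligand of the same receptor, was not well above background on any array, with signals of 3.15, 1.43 and 1.17. Ccl2, the main attractant of monocytes through CCR2, had signals of 82.0, 43.3 and 74.7, so that AtmsKO was 0.84 below WT on the log2 scale. Ccl20, the ligand of CCR6, had signals of 10.1, 11.1 and 7.39, near the edge of detection, where its log2 difference of -0.88 between the mutant arrays is about 2 times the spread of repeated spots. Over the 8 CC chemokines detected, the median log2 difference was -0.21 between AtmsKO and WT, -0.51 between the Atmp38dKO-labelled array and WT and -0.04 between the mutant arrays.

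Of the CXC chemokines, Cxcl12 alone differed by at least 2-fold, and between the mutant arrays alone. Cxcl12, which encodes the niche factor SDF-1, had signals of 21.6 in WT, 25.2 in AtmsKO and 13.9 on the Atmp38dKO-labelled array, 2.22-fold below AtmsKO (log2 difference -1.15) and 1.80-fold below WT. A second probe of Cxcl12, on another transcript, was not well above background on any array, and the difference between the mutant arrays was -0.87 with the mean over both probes and -0.43 with normexp. Of 9 stromal and endothelial markers, a list that includes Cxcl12 itself, 8 were well above background on each array, and their summed level on the log2 scale was 2.34, 2.5 and 2.03, and 2.28, 2.43 and 1.99 without Cxcl12, so the list was also lowest on the Atmp38dKO-labelled array. In that list Kdr had signals of 5.88, 114.0 and 18.1, Pdgfrb 18.8, 76.2 and 25.1 and Lepr 28.8, 32.5 and 23.0, while Cdh5 was not detected. The list did not move together, since Col1a2 (83.5, 57.3 and 98.8), Col1a1 (14.7, 12.0 and 16.8) and Pecam1 (133.9, 91.1 and 123.9) were lower in AtmsKO than on the Atmp38dKO-labelled array, and Emcn (203.5, 133.6 and 160.1) differed by 0.03 in size between them. The part of other cells in the Cxcl12 signal was not tested, and fewer cells of a type cannot be told apart from less RNA per cell.

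Cxcl2, a neutrophil attractant through CXCR2, had signals of 17.4, 18.1 and 23.9 and log2 differences of at most 0.25. Cxcl5, which acts on the same receptor, had signals of 19.6, 13.7 and 14.0. Cxcl16, a membrane-bound chemokine that binds CXCR6, was at its brightest probe the most even of the 25 genes seen on all arrays. It had signals of 56.0, 52.3 and 66.2 and log2 differences within 0.05. A second Cxcl16 probe gave 22.9, 22.7 and 24.7, with differences between -0.17 and 0.07. The interferon-induced ligands of CXCR3 were mostly dim. Cxcl9 had signals of 9.96 in WT and 10 on the Atmp38dKO-labelled array but missed that flag in AtmsKO, at least 1.54-fold below WT. Cxcl10 was well above background only on the Atmp38dKO-labelled array, at 6.45.

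Cxcl11, the other gene of this set, stood apart. The brightest probe gave 17296.4, 18672.6 and 20382.7 in WT, AtmsKO and the Atmp38dKO-labelled array, and a second probe, 13 bases away, gave 3246.8, 3209.4 and 3729.9, with log2 differences between -0.17 and 0.19 at both. The RefSeq table lists Cxcl11 as a transcribed pseudogene. The brightest probe shared a 16-base word with the promoter windows of 54 other genes and with probes of 23 other gene names. The second probe did so with 9 and 4, and 39 of the 59 probes of the ligand genes shared none with a promoter. Only 1.44% of all probes on the array shared words with 10 or more promoters. The most shared word of each Cxcl11 probe is in capitals (mm9, - strand), since the sequence bears on what the bright signal reads.
Cxcl11 brightest probe, chr5:92788591-92788620: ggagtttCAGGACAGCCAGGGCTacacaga
Cxcl11 second probe, chr5:92788650-92788679: cttgaaaGGCAGAGGCAGGAGGAtctcttg
The first word occurred in the promoters of 24 other genes and the second in those of 3. The Cxcl11 signal is thus given as the signal of a probe whose letters recur, and whether other transcripts contribute to it was not tested.

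Among the interleukins and their relatives, Osm and Il1b were lower on both mutant arrays at their brightest probes. Osm encodes oncostatin M, a cytokine of the IL-6 family made mainly by blood cells. Its brightest probe had signals of 117.2 in WT, 54.4 in AtmsKO and 65.7 on the Atmp38dKO-labelled array, 2.04-fold and 2.07-fold below WT. A second Osm probe, 1313 bases away, had signals of 11.3, 11.1 and 6.06. It repeated the lower value on the Atmp38dKO-labelled array (log2 difference from WT -1.12) but not that in AtmsKO (0.05). Lif, the neighbour of Osm on chromosome 11 and a member of the same family, was well above background on both mutant arrays only, at 6.52 and 6.38, at least 1.29-fold above WT in AtmsKO. Il1b, the gene of the fever-inducing cytokine IL-1β, had signals of 22.8, 12.5 and 15.0, log2 differences of -0.79 and -0.82 from WT. Its other 2 probes were not well above background on any array, and with the mean over all probes the differences were -0.08 and -0.48.

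Il18 and Il12a were highest on a mutant array. Il18, an IL-1 family cytokine that induces interferon-γ, had signals of 93.5, 81.4 and 161.4, so that the Atmp38dKO-labelled array was 0.57 above WT and 0.70 above AtmsKO on the log2 scale. Il12a, the p35 subunit of IL-12, had signals of 180.8, 253.2 and 234.8, and Il12b, the p40 subunit, 13.6, 11.4 and 11.6. The subunit genes thus differed in opposite directions between AtmsKO and WT, by 0.56 and -0.18 on the log2 scale, the latter within the spread of repeated spots. Il15, a survival factor of NK cells, had signals of 128.9, 140.6 and 190.8 at its brightest probe. Its second probe gave 168.0, 122.1 and 168.7, with log2 differences from WT of -0.38 for AtmsKO and -0.21 for the Atmp38dKO-labelled array, where the first gave 0.20 and 0.35. The remaining Il15 probe gave 32.4, 24.8 and 42.9 and differences of -0.31 and 0.19, so Il15 had no settled direction against WT. Il10, an anti-inflammatory cytokine, was well above background only on the Atmp38dKO-labelled array, at 11.7, at least 1.89-fold above WT and at least 1.56-fold above AtmsKO. Over the family the median log2 difference was -0.12 between AtmsKO and WT and 0.10 between the Atmp38dKO-labelled array and WT.

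Of the TNF superfamily, Tnfsf9 differed most. It encodes 4-1BB ligand, a costimulator of T cells, and had signals of 23.5 in WT, 27.5 in AtmsKO and 12.0 on the Atmp38dKO-labelled array. This was 2.28-fold below WT (log2 difference -1.19) and 2.80-fold below AtmsKO (-1.49), on a single probe. Tnfsf14, which encodes LIGHT and lies within 82.2 kb of Tnfsf9, had signals of 96.2, 58.6 and 84.4, with AtmsKO lowest. Tnfsf10, the gene of the death ligand TRAIL, had signals of 194.2, 271.2 and 336.5, 0.56 and 0.58 above WT on the log2 scale. Its second probe gave 148.3, 157.3 and 167.6 and differences of 0.16 and -0.04, so the higher value at the first probe was not seen at the second.

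Tnf itself was read by 2 probes 112 bases apart. Signals were 51.3, 64.0 and 54.2 at the brighter probe and 41.7, 32.2 and 29.4 at the other. AtmsKO was therefore above WT at the first (log2 difference 0.40) and below it at the second (-0.30), whereas the Atmp38dKO-labelled array was below AtmsKO at both (-0.53 and -0.42). Ltb, the membrane anchor of lymphotoxin, had signals of 288.9, 207.1 and 301.2, and Lta, the secreted lymphotoxin subunit, was well above background on the mutant arrays only, at 6.82 and 6.38. Ltb, Tnf and Lta lie within 7.2 kb on chromosome 17, and AtmsKO, the lowest array for Ltb, was the highest for Lta and for the brighter Tnf probe.

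The growth factors and interferon-γ were mostly at the edge of detection. Csf1, the growth factor of macrophages, had signals of 22.4 in WT and 30.9 on the Atmp38dKO-labelled array but 5.46 in AtmsKO, not well above background there. This put AtmsKO at least 3.47-fold below WT and the Atmp38dKO-labelled array at least 4.12-fold above AtmsKO. Both other Csf1 probes, which share 31 bases and lie on another transcript, went the opposite way, since they were well above background only in AtmsKO, at 8.22 and 7.37. Csf1 as a whole therefore had no settled direction. Ifng, the gene of interferon-γ, was well above background only in WT, at 15.1, at least 2.34-fold above AtmsKO and at least 3.52-fold above the Atmp38dKO-labelled array. T and NK cells are its usual source, and 10 of 11 T and NK cell markers were well above background on each array, at summed log2 levels of 3.49, 3.61 and 3.79, lowest in WT. Cd4, at 483.8, 447.7 and 607.8, was the brightest marker of this list, and without it the sum was 2.69, 2.91 and 3.12, also lowest in WT. The gate excluded cells stained for CD4 or CD8. Whether T or NK cells passed the gate, which also required c-Kit and lack of CD48, was not tested. Csf2 and Csf3, growth factors of myeloid cells, were well above background only on the Atmp38dKO-labelled array, at 6.61 and 5.03. The lowest flagged signal was 4.97 on that array, 5.33 in WT and 6.12 in AtmsKO. The Csf3 reading thus lay below the limit of both other arrays and gives no fold. Tgfb1, which is known to keep HSCs quiescent, was even at its brightest probe, with 293.5, 277.7 and 283.3 and log2 differences of at most 0.27 in size. Its second probe gave 166.5, 169.1 and 214.2. There the Atmp38dKO-labelled array was 0.15 above WT on the log2 scale, where the first probe gave -0.27.

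Over the 25 genes seen on all 3 arrays, the WT array was highest for 13, the AtmsKO array for 6 and the Atmp38dKO-labelled array for 6. The Atmp38dKO-labelled array was lowest for 12, AtmsKO for 7 and WT for 6. These counts, and those of the range below, were not made over all genes. They describe the 25 genes and cannot show a trait particular to them. The distance between the highest and the lowest array was under 0.5 on the log2 scale for 8 genes and at least 1 for 6, Tnfsf9 (1.49), Ccl4 (1.44), Ccl17 (1.18), Cxcl12 (1.15), Ccl3 (1.06) and Osm (1.05). At the brightest probes the order of arrays was not the same in these 6. Ccl17 was lowest in AtmsKO with the Atmp38dKO-labelled array close to it, Osm was low in both, and the other 4 were lowest on the Atmp38dKO-labelled array alone. The second Osm probe was also low on the Atmp38dKO-labelled array alone, so the order for Osm rests on the probe read.

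The second probes of a gene gave a check on single readings. For 8 genes with further probes well above background on all arrays there were 27 pairs of differences, and 13 of them had the same direction. Without Ccl4, whose probes share 46 bases, this was 10 of 24 pairs. Several pairs hold differences near 0, such as Cxcl16 between AtmsKO and WT (-0.02 and 0.07), where the direction means little. Comparisons of the same probes also share arrays, so the pairs are not independent. The median gap within a pair was 0.22 on the log2 scale and the largest was 1.15, for Osm between the mutant arrays. Of these 8 genes, Ccl4 and Osm had a difference of at least 2-fold at the brightest probe. Ccl4 had it at both of its overlapping probes, which is no independent check, and Osm kept it between the Atmp38dKO-labelled array and WT and not between AtmsKO and WT. Ccl3, Ccl17, Tnfsf9 and Ifng rest on 1 probe each.

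**Figure D4:**
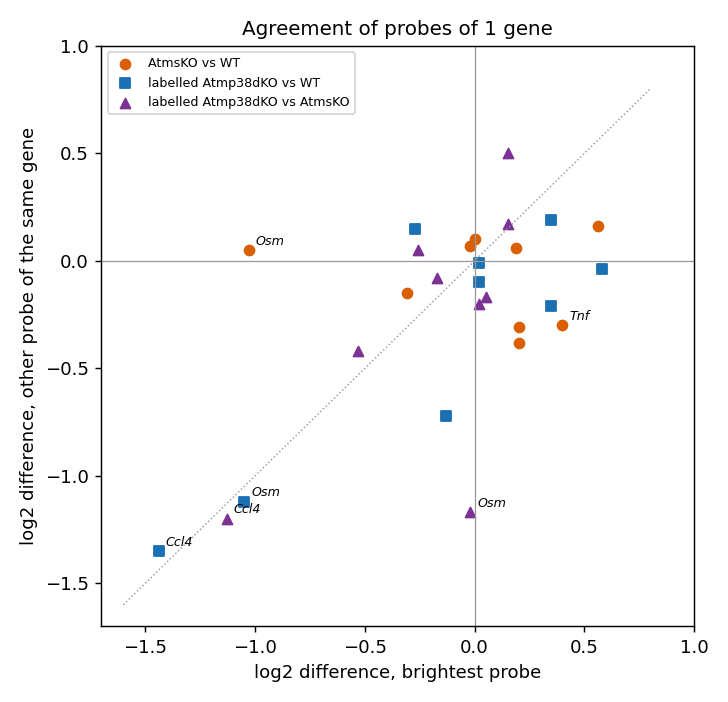
Log2 difference at the brightest probe of a gene (x axis) against that at another probe of the same gene (y axis), 1 point per further probe and comparison, for the 8 genes with further probes well above background on all 3 arrays; the dotted line marks equal values. The Ccl4 points lie near the line at -1.44 and -1.13, while Osm lies off it in 2 of 3 comparisons and Tnf has opposite signs between AtmsKO and WT.

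Macrophages are a rich source of several of these ligands, so their markers were set beside them. The lineage gate excluded cells stained for Mac-1 or Gr-1, and how fully it did so was not tested. Of 12 monocyte and macrophage markers, 10 were well above background in WT and 9 on each mutant array, and their summed level on the log2 scale was 5.20, 5.12 and 5.10. Csf1r, at 2529.5, 2057.5 and 2492.0, made up most of this sum, which without it was 3.58, 3.75 and 3.72, lowest in WT. Ccr2 and Fcgr1 were not detected on any array. Adgre1, which encodes F4/80, had signals of 20.1 and 8.55 in WT and AtmsKO and fell short of the flag on the Atmp38dKO-labelled array, at 5.46, and Cd68 had 196.0, 140.2 and 118.9, both in the order seen for Ccl3 and Ccl4. Cd14 (14.0, 15.2 and 16.8), Mpeg1 (41.0, 46.9 and 56.3) and Ly6c2 (792.4, 965.7 and 1185.2) were not lower than WT on either mutant array, with log2 differences of 0.05 to 0.37. Dendritic cell markers, which bear on Ccl17, had summed log2 levels of 5.06, 5.11 and 4.95, with 7, 4 and 7 of 7 well above background. Siglech, at 3238.2, 3177.2 and 3429.0, made up most of this sum, which without it was 0.59, 0.49 and 0.78, and Cd209a had 13.3 in WT, 34.6 on the Atmp38dKO-labelled array and 7.15, short of the flag, in AtmsKO. Granulocyte markers (12 of 12 on each array) had levels of 4.98, 5.21 and 5.19, B cell markers (7, 6 and 8 of 8) 2.69, 2.62 and 2.65, mast cell and basophil markers (5, 4 and 7 of 8) 1.57, 1.60 and 1.80, and megakaryocyte and erythroid markers (9, 10 and 10 of 10) 4.32, 5.06 and 4.53. The last list was carried by Pf4, and without it the sum was 3.31, 3.13 and 3.34, lowest in AtmsKO. CD41, which the methods gate out, marks megakaryocytes. The part of these cells in the ligand signals was not tested.

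The receptors for these ligands were counted in the same way. Of 43 receptor genes, 2 of 38 were at least 2-fold higher in AtmsKO than in WT and 1 was lower, 1 of 39 was higher and 3 were lower on the Atmp38dKO-labelled array than in WT, and 1 of 36 was higher and 3 were lower between the mutant arrays. Over all genes, 3.94% were higher and 4.09% lower in the first comparison, 4.02% and 4.49% in the second and 3.75% and 3.72% in the third. The receptors' median log2 differences were -0.07, -0.08 and -0.04, beside 0.01, 0.02 and 0.00 in size over all genes. Ccr4, the receptor of Ccl17 and Ccl22, was highest where Ccl17 was lowest, with 239.7 in AtmsKO, 10.8 on the Atmp38dKO-labelled array and no signal well above background in WT (5.00), although its second probe was not well above background on any array. Il18r1, a chain of the IL-18 receptor, had signals of 6.28, 46.6 and 25.3, log2 differences of 2.97 and 1.79 from WT. At its second probe AtmsKO was not well above background, and the Atmp38dKO-labelled array was 0.85 above WT. The IL-12 receptor chains differed in opposite directions between the mutant arrays, Il12rb1 with 48.5, 69.2 and 39.2 and Il12rb2 with 203.5, 104.9 and 269.8. Cxcr1 was well above background in WT only, at 43.3, so that AtmsKO was at least 6.7-fold and the Atmp38dKO-labelled array at least 10.1-fold below WT. Cxcr4, the receptor of CXCL12, was even at 2449.6, 2698.5 and 2794.8.

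Further ligand genes outside the list were counted too. Of 50 on the array, 3 of 42 were at least 2-fold higher and 2 lower in AtmsKO than in WT, 0 and 3 of 42 on the Atmp38dKO-labelled array than in WT, and 1 and 2 of 40 between the mutant arrays, with median log2 differences of -0.21, -0.10 and 0.02. The shares over all genes were those given for the receptors, 3.94% and 4.09%, 4.02% and 4.49%, and 3.75% and 3.72%. Medians over all genes were 0.01, 0.02 and 0.00 in size. Ccl19, which guides lymphocytes and dendritic cells through CCR7, had signals of 30, 108.4 and 26.7, so AtmsKO alone was high. Cxcl13 was well above background in WT only, at 96.2. This put AtmsKO at least 14.9-fold and the Atmp38dKO-labelled array at least 22.5-fold below WT. Pf4, a platelet chemokine, had 1019.5, 2366.4 and 1535.6, and it is also a marker in the megakaryocyte list. Ccl28, a mucosal chemokine, had 34.8, 11.7 and 17.7 at its brightest probe, which its second probe did not repeat (14.9, 13.2 and 18.8).

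Genes that restrain cytokine output, Zfp36 and Atf3 among them, were counted last, and all 29 were considered in each comparison. In AtmsKO against WT 1 was at least 2-fold higher and 0 were lower, on the Atmp38dKO-labelled array against WT 0 were higher and 3 lower, and between the mutant arrays 0 were higher and 2 lower, with median log2 differences of -0.11, -0.32 and -0.15. Over all genes, 3.94% were higher and 4.09% lower in the first comparison, 4.02% and 4.49% in the second and 3.75% and 3.72% in the third. The median log2 differences over all genes were 0.01, 0.02 and 0.00 in size. Zfp36, the gene of tristetraprolin, had signals of 12555.9 in WT, 12846.9 in AtmsKO and 6698.2 on the Atmp38dKO-labelled array, log2 differences of -1.12 from WT and -1.23 from AtmsKO. Atf3, a stress-induced repressor of cytokine genes, had 439.7, 267.0 and 131.1, log2 differences of -0.64 for AtmsKO and -1.96 for the Atmp38dKO-labelled array from WT. Both are also immediate early genes. Nfkbiz, an atypical inhibitor of NF-κB that also activates some of its targets, had 469.5, 379.6 and 262.9 at its brightest probe. A further Nfkbiz probe gave 66.4, 48.1 and 94.5, highest where the first was lowest. Bcl3, a related protein, had 43.2, 92.0 and 78.8, 1.17 above WT in AtmsKO on the log2 scale.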

How the data were processed

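Each deposited scanner file held the spots of 1 array as intensity values, which the authors' service provider had background-subtracted (the submitters' processing notes name Agilent Feature Extraction 11.5.1.1) and not normalized between arrays. The authors also deposited log2 values of the same arrays, which equaled the log2 processed intensity minus the array's 75th percentile within 0.02 for 99.6% to 99.8% of probes, and which served as an alternative. Control spots and 57 to 83 outlier spots per array were left out, and spots of a probe were averaged. No spot was saturated. The scanner flag had to be set on over 50% of the spots of a probe. Values not well above background were raised, on each array, to the lowest signal well above background there, unless their own was higher, and a difference from such a value is written as at least N-fold. A difference was counted at 2-fold or more with the brighter array well above background.

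Genes carried the names in the array files, with coordinates on mm9. Matching accessions to RefSeq instead named 41 of the 42 genes, with the same probe for 40. The 42 genes, their families and the other gene lists were chosen with earlier results of these data known. Levels and differences are given for each gene seen on all arrays or at least 2-fold apart. They are also given for up to 6 genes of each further list that differed at least 2-fold with both arrays well above background. Cxcr4, Cxcr1, Cxcl13 and the markers were added after their values were seen. Alternatives were quantile normalization, centring on detected probes, normexp background correction (offset 50), no floor, the authors' log2 values, RefSeq names and the mean over probes. Marker sums without 1 gene and probe pairs without Ccl4 were added after seeing the data. The counting functions were tested on simulated data. Tools were Python 3.11.15, NumPy 2.4.6, pandas 2.3.3, R 4.3.3 and limma 3.58.1. With 1 array per genotype, the number of arrays limits precision throughout.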

Additional observations from a re-analysis of the deposited data

How the results depend on the processing

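No paired analysis was possible because each genotype had 1 array. Of 93 alternative counts and medians, 65 stayed close to the values given, 26 moved and 2 reversed; of the alternative differences of single genes, 490 stayed and 184 moved. No difference of at least 2-fold changed sign, but 20 smaller ones did under at least 1 alternative (30 of 674 values), among them Csf3, Il10, Il15, Csf1 and Cxcl10, each at most 0.64 in size. Normexp correction, whose offset of 50 exceeds the signal of most ligand genes and so shrinks their differences, left 0, 1 and 0 genes at least 2-fold lower (AtmsKO against WT, the Atmp38dKO-labelled array against WT, and the mutant arrays against each other) and 0 higher between the mutant arrays, where 0.360%, 0.493% and 0.476% of all genes were lower. The gene left was Ccl4 against WT, whose log2 difference lay between -1.45 and -1.17 under all 7 alternatives. Averaging the probes of a gene gave 2 lower genes in AtmsKO against WT, without Csf1 and Osm, and 0 higher between the mutant arrays, and brought Cxcl12 between the mutant arrays to -0.87. Requiring both arrays well above background gave 2 and 0 for the same counts. Quantile normalization gave 5 lower genes between the mutant arrays. Without a floor, and with the authors' log2 values, the genes at least 2-fold higher were 2, 2 and 4, which are ratios to values not well above background.

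For AtmsKO against WT, the median log2 difference moved to -0.02 with normexp, and the mean was -0.23. For the Atmp38dKO-labelled array against WT, it moved to -0.26 with quantile normalization, -0.11 with normexp, -0.27 over genes seen on all 3 arrays and -0.26 over genes seen on both (added after seeing the data), and the mean was -0.28. Between the mutant arrays it was -0.03 under RefSeq names, -0.03 over genes seen on all 3 arrays and -0.09 without Cxcl11 (added after seeing the data), the mean was -0.10, and it reversed to 0.02 without a floor and with the authors' log2 values. The floor and the signal over background thus set how far dim genes such as Ifng, Csf1 and Il10 can be read.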
